A study of Mus musculus with 14 samples.

Results

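The clustered protocadherin locus of mouse chromosome 18 was taken as all regions of the deposited table that overlap positions 37080000 to 38010000 of the mm9 build, a stretch of 930 kb. It held 22 of the 191271 regions. They are numbered here 1 to 22 in the order of rising coordinates. Accessibility comes from ATAC-seq, an assay whose transposase inserts adapters into open DNA, of neuronal nuclei sorted from hippocampus. All mice carried a tamoxifen-inducible Cre recombinase driven from Arc, a gene switched on by neuronal activity (ArcCreERT2), crossed with the R26R-STOP-floxed reporter of the yellow fluorescent protein eYFP, and are labelled +/+ for genotype. All received 4-hydroxytamoxifen and a foot shock in contextual fear conditioning on day 0. The eYFP reporter marks only cells in which Cre was active around the dose, and the labels do not give the mice's age.

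The 14 libraries form 4 groups by title. Basal (n = 4) and Early (n = 3) share 1 treatment label, shock and collection on day 0 without recall, and the labels do not say what sets them apart. Late (n = 4) was collected on day 5 without recall. Reactivated (n = 3) is labelled with recall on day 5 and with collection on day 5, 6 or 7 for replicate 1, 2 or 3. Hippocampi of 10 to 12 mice were pooled to obtain 10000 nuclei per condition. The design description states 3 biological replicates, while Basal and Late have 4 libraries each. The labels do not tie single libraries to separate pools of mice. P-values therefore measure the spread between libraries, part of which may be technical.

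Clustered protocadherins are cadherin-like adhesion proteins that sit on the neuronal surface and bind copies of themselves on other membranes. Each neuron uses its own small set of isoforms, and this set lets branches of 1 neuron recognise and avoid each other. In the alpha and gamma clusters each variable exon has its own promoter and is spliced to constant exons shared by the cluster, whereas each beta gene is a single exon. Promoter choice depends on CTCF and cohesin, which fold distant enhancers onto the promoters, and on DNA methylation. The C-type isoforms at the ends of the alpha and gamma clusters are used more broadly among neurons.

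A RefSeq gene table of the GRCm38.p6 build lists 58 symbols of the family, 57 of them protein-coding. In its order 14 Pcdha genes (Pcdha1 to Pcdhac2) come first, then 22 Pcdhb genes (Pcdhb1 to Pcdhb22), and last 22 Pcdhg genes (Pcdhga1 to Pcdhgc5). Slc25a2, a mitochondrial amino acid carrier, and Taf7, a subunit of the general transcription factor TFIID, lie between Pcdhb22 and Pcdhga1. That table is of another build than the regions. No region was therefore assigned to a gene, exon or promoter, no marker gene of neurons or other cells was checked, and regions are named by position.

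The 22 regions lay in groups with a wide empty stretch between them. Divided into 6 segments of equal length, the locus held 1, 7, 0, 0, 1 and 13 regions from the lower to the higher end. Region 1 (chr18:37179665-37180369) stood alone, and regions 2 to 8 spanned chr18:37249144-37250757 to chr18:37376499-37378144. No region of the table used here lay in the next 425497 bases. Region 9 (chr18:37803641-37804182) followed, and a further 97506 bases on began the denser end of the locus, with regions 10 (chr18:37901688-37901952) to 22 (chr18:38004173-38004525). The empty stretch was the widest of the 8916 gaps between neighbouring regions on chromosome 18, and 91 of the 191249 gaps in the whole table were at least as wide.

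With 2.37 regions per 100 kb the locus was sparser than equal stretches on either side. The 930 kb of lower coordinates held 50 regions (5.38 per 100 kb) and the 930 kb of higher coordinates 78 (8.39 per 100 kb), while chromosome 18 as a whole had 10.2 per 100 kb. The median width was 520 bases in the whole table, and 610 and 680 in the stretches of lower and higher coordinates. The regions of the locus had a median of 716 bases. Region 3 (chr18:37302987-37304775) was the widest, at 1788 bases, and region 5 (chr18:37310088-37310322) the narrowest, at 234. Their level, in RPKM, reads divided by the region's length in kilobases and by the library's total reads, was ordinary: the median of the mean RPKM was 1.40 in the locus and 1.31 in the table. The Late libraries held 46134253 to 47375212 reads in all, and the libraries of the other groups 54257222 to 56251676. Depth thus differed between Late and the rest, and its part in comparisons with Late was not tested. Between 847 and 2778 reads per library fell in the 22 regions, and single regions had 4 to 429, so narrow regions carry large counting error.

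Region 9 had the highest mean over the 14 libraries, 3.31 RPKM, higher than 97.3% of all regions. It also had a wide spread, with 4.73, 1.63, 2.21 and 2.90 RPKM in Basal replicates 1 to 4, 2.18, 3.99 and 2.38 in Early, 3.78, 3.17, 3.12 and 2.67 in Late and 6.93, 2.66 and 3.92 in Reactivated. All 4 groups overlapped there. Region 6 (chr18:37331910-37332298) with 2.77 RPKM and region 8 with 2.63 came next, then region 18 (chr18:37978733-37980159) with 2.16, region 3 with 2.07 and region 21 (chr18:38001145-38002848) with 1.70. The lowest was region 1, at 0.616 RPKM, higher than 4.96% of the table. The 4 Basal libraries averaged 0.452 ± 0.112 RPKM (SD, as for all group means here), the 3 Early libraries 0.384 ± 0.247, the 4 Late libraries 0.740 ± 0.288 and the 3 Reactivated libraries 0.905 ± 0.159. It fell among the 10% of regions with the lowest mean and was the only one of the 22 left out of the tests, so 21 were tested.

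**Figure D1:**
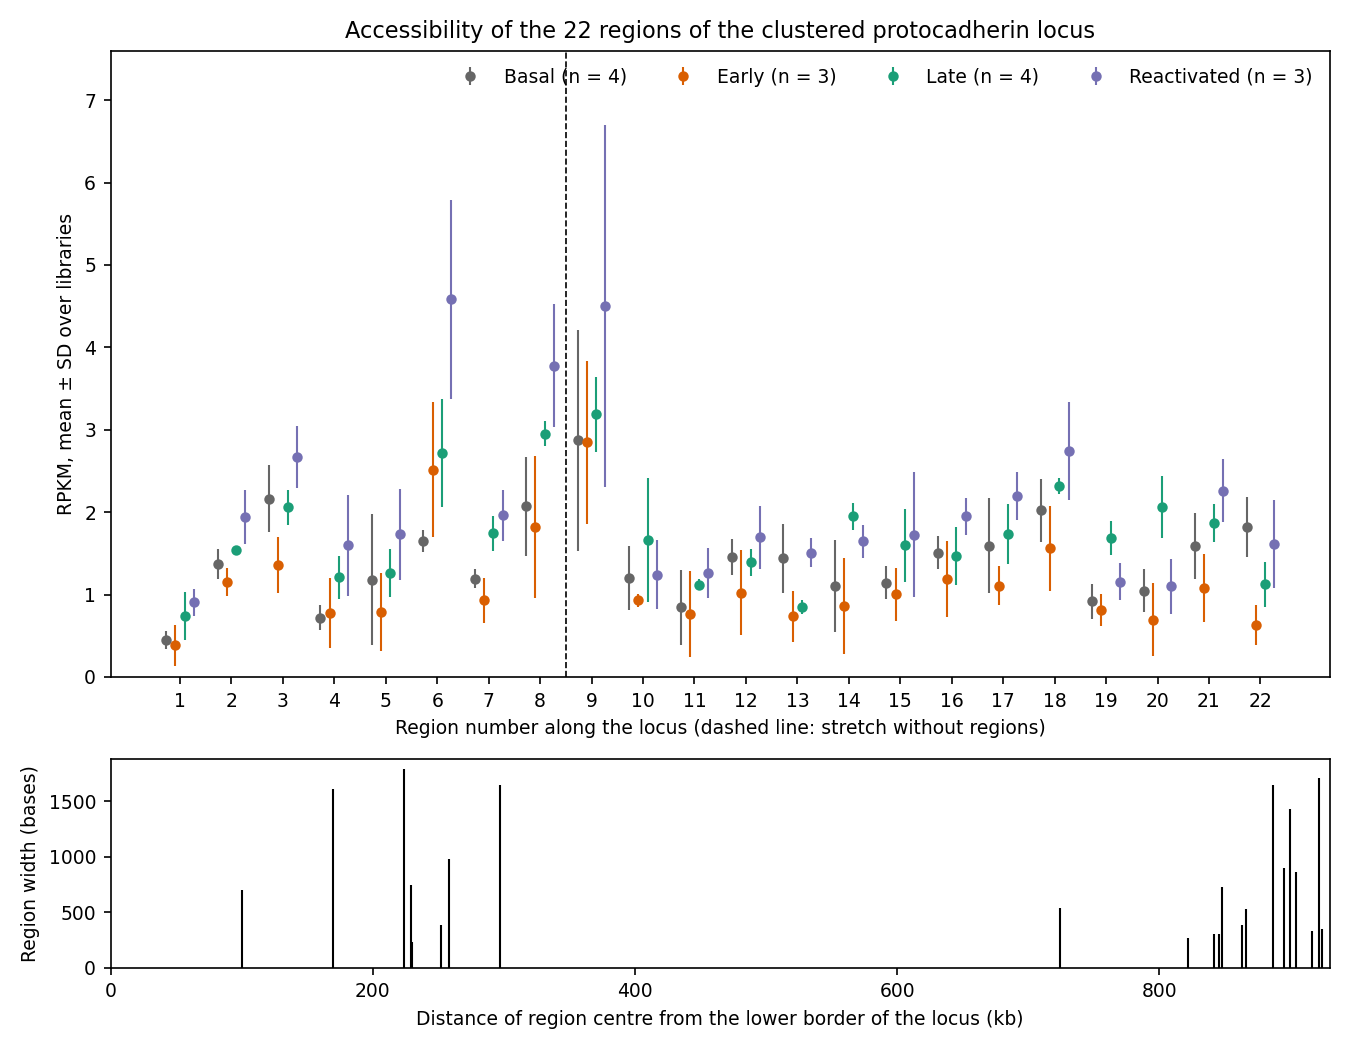
Upper panel, RPKM of the 22 regions in order along the locus, as mean ± SD over the libraries of each group, with a dashed line at the stretch of 425497 bases without regions. Lower panel, width of each region in bases against the distance of its centre from the lower border of the locus in kb. Reactivated (violet) had the highest mean at 17 regions and Early (orange) the lowest at 20. Averaged over the whole table Reactivated was highest too, and Basal was lowest.

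Early was mostly the lowest group along the locus and Reactivated mostly the highest, while the order of Basal and Late varied. The Late mean was below the Basal mean at regions 3, 12, 13, 16 and 22. The Reactivated mean was the highest of the 4 at 17 of the 22 regions, Late at 4 (regions 10, 14, 19 and 20) and Basal at 1 (region 22). Early was the lowest at 20 regions, and Basal at regions 4 and 6. Averaged over the bases of the regions, the locus stood at 1.54 ± 0.285 RPKM in Basal, 1.20 ± 0.392 in Early, 1.83 ± 0.103 in Late and 2.25 ± 0.424 in Reactivated. The share of all reads that fell inside regions also differed between libraries: it was 15.7% ± 2.71 in Basal, 19.2% ± 0.653 in Late and 23.1% ± 1.54 in Reactivated, and in Early replicates 1, 2 and 3 it was 13.8%, 27.8% and 18.1%. Its part in the order of the groups was not tested.

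Division by the same average over all 191271 regions removes differences that scale a whole library. On this relative measure the Early libraries stood apart. The locus was at 0.750, 0.714 and 0.762 of the table average in Early replicates 1, 2 and 3. It was at 1.19, 1.07, 1.29 and 1.26 in Basal replicates 1 to 4, at 1.23, 1.25, 1.03 and 1.16 in Late and at 1.37, 1.06 and 1.13 in Reactivated. Thus all 3 Early libraries lay below the average of the table and the other 11 above it. The share of reads in regions was 13.8% in Early replicate 1 and 27.8% in Early replicate 2, and its part in the relative level was not tested. As the regions were chosen with earlier results known, no test is attached to the low level in Early.

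The low relative level in Early reached beyond the locus on both sides. In the 930 kb of lower coordinates it was 0.917 ± 0.0298 in Early against 1.44 ± 0.115 in Basal, 1.23 ± 0.0855 in Late and 1.39 ± 0.272 in Reactivated. On the side of higher coordinates the ratio was 0.856 ± 0.0217 in Early, 1.28 ± 0.0935 in Basal, 1.20 ± 0.106 in Late and 1.32 ± 0.281 in Reactivated. Over all 8917 regions of chromosome 18 the groups lay close together, at 1.09 ± 0.0231 in Early, 1.08 ± 0.0142 in Basal, 1.04 ± 0.0105 in Late and 1.03 ± 0.0181 in Reactivated. The pattern was thus shared by the locus and its neighbours and was not seen in the chromosome-wide average.

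**Figure D2:**
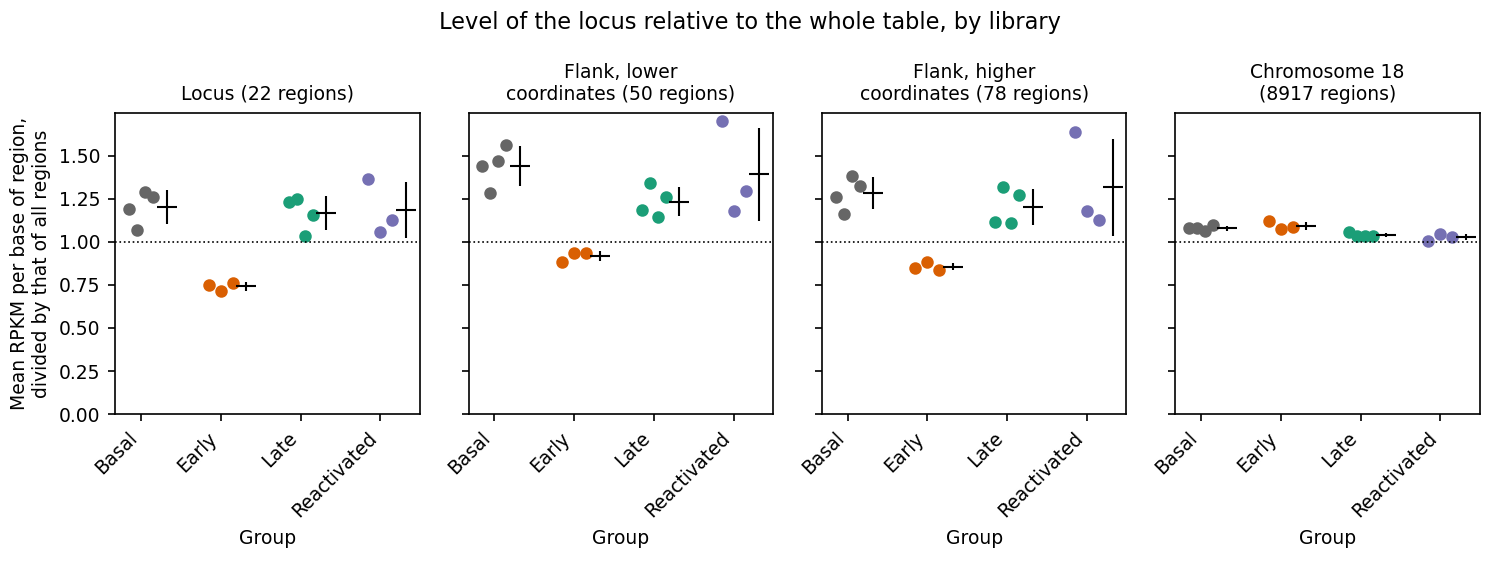
Mean RPKM per base of region divided by that of all 191271 regions, for the locus, the 930 kb on either side and chromosome 18, with 1 point per library and black bars for mean ± SD. The 3 Early libraries sit at 0.714 to 0.762 in the locus, below every other library, and chromosome 18 as a whole shows no such drop.

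Early against Basal compares libraries of the same labelled day. At 18 of the 21 tested regions the log2 fold change was below 0, that is 3 were above 0, where 69.3% of all tested regions were above 0. The median was -0.26 in the locus, 0.23 over all tested regions, -0.23 in the flank of lower and -0.18 in the flank of higher coordinates. In ATAC-seq of many nuclei, a lower level in each nucleus and fewer nuclei with the region open cannot be told apart.

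Region 22, the last of the locus, was the only one to pass the test in this comparison, 1 of 21 lower and 0 higher, where 1.44% of all regions were lower and 10.9% higher (limma, Benjamini-Hochberg adjusted p under 0.05). It stood at 1.78, 1.41, 2.30 and 1.78 RPKM in Basal replicates 1 to 4 and at 0.681, 0.838 and 0.366 in Early replicates 1 to 3, without overlap. How many of all regions separate in this way was not counted, here or for the regions below. Late had 0.857, 1.11, 1.50 and 1.03 RPKM, and Reactivated 2.22, 1.26 and 1.36. The fall was 1.05 on the log2 scale (-1.05 ± 0.23 SE, limma adjusted p = 0.0102), from 1.82 ± 0.366 RPKM in Basal to 0.628 ± 0.240 in Early. It passed under each of 24 alternative settings, with adjusted p from 0.00278 to 0.0418. The region is 352 bases wide and rests on 7 to 44 reads per library.

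Region 13 (chr18:37927513-37928240) came nearest after it. Its values were 1.75, 1.22, 0.963 and 1.82 RPKM in Basal and 0.380, 0.938 and 0.887 in Early, so Early lay below every Basal library, though the log2 difference of -0.66 ± 0.22 missed the threshold (limma, adjusted p = 0.0549). Region 6 was the only one with a log2 difference above 0.1 in the other direction, 0.46 ± 0.26 (adjusted p = 0.237).

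How many regions passed in this comparison depended on the scaling of the libraries. Median-of-ratios scaling shifts the median of all regions from 0.23 to -0.01. It put 10 regions of the locus lower and 0 higher, where 7.11% of all regions were lower and 8.16% higher. Quantile normalization put 7 lower and 0 higher, where 5.82% were lower and 6.60% higher, and those 7 were among the 10. The members lower in both were regions 3, 12, 13, 18, 20, 21 and 22, of which 6 lie in the dense group at the higher end. After median-of-ratios scaling 13 of 43 regions in the flank of lower coordinates and 24 of 75 in the other flank were lower as well. On the same scale the median log2 fold change of the locus was -0.50.

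**Figure D3:**
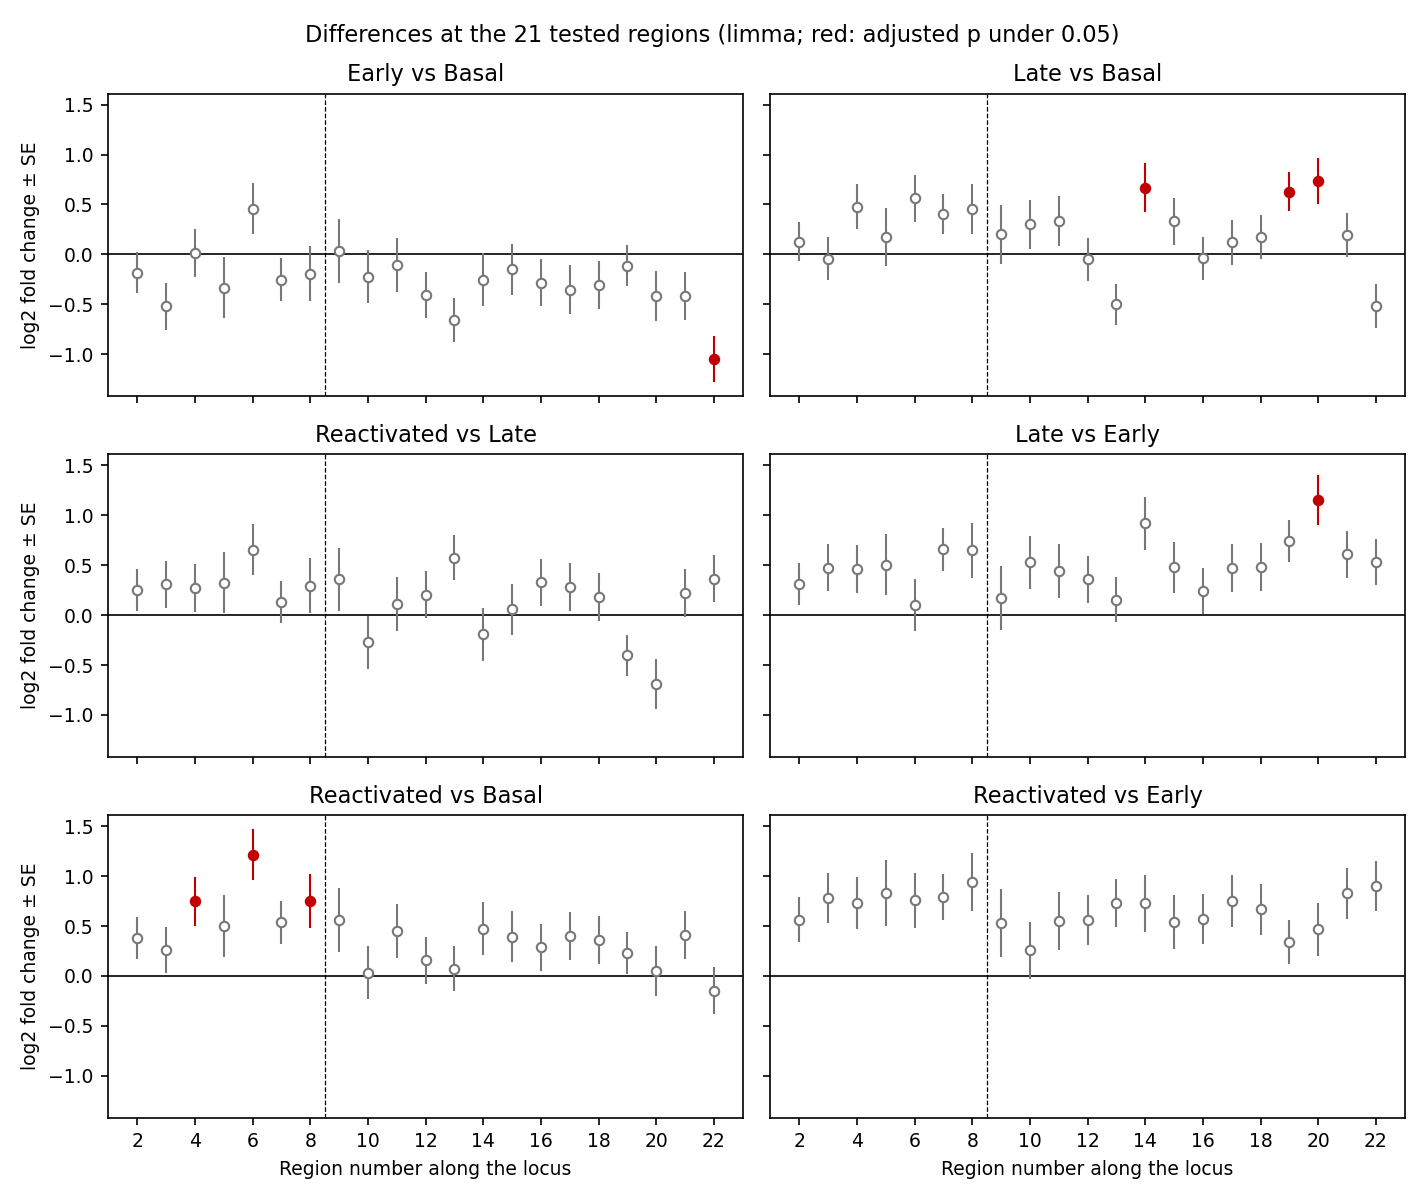
Log2 fold change ± SE of the 21 tested regions in the 6 comparisons, in order along the locus (limma on the deposited scale). Red points passed an adjusted p of 0.05. Differences from Early lie above 0 at all 21 regions in Late and in Reactivated, and region 22 falls furthest in Early against Basal.

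Late against Basal sets day 5 beside Basal. Of the 21 regions 3 were higher and 0 lower, where 23.9% of all regions were higher and 6.03% lower. In the flank of lower coordinates 6 of 43 were higher and 1 lower, and in the other flank 11 of 75 and 1. The median log2 fold change was 0.20 in the locus and 0.28 over all regions. All 3 higher regions of the locus lie in the dense group at the higher end, and regions 19 and 20 are next to each other. After median-of-ratios scaling and after quantile normalization none of the 3 passed, 2 others (regions 13 and 22) were lower and 0 were higher, with 15.2% and 16.5% of all regions higher and 16.1% and 15.2% lower. The calls of higher accessibility in Late were therefore tied to the deposited scale. When the percentage of reads in regions was a covariate, 1 was higher (region 19) and 1 lower, where 14.9% of all regions were higher and 6.82% lower.

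Region 20 (chr18:37996115-37996450) had the largest of these differences. It stood at 1.32, 0.770, 1.21 and 0.880 RPKM in Basal, at 0.275, 1.16 and 0.660 in Early, at 1.67, 2.46, 1.83 and 2.29 in Late and at 1.43, 0.770 and 1.10 in Reactivated. Every Late library lay above all 10 others, while Basal, Early and Reactivated overlapped. Against Basal the log2 fold change was 0.73 ± 0.23 SE (limma, adjusted p = 0.0212). That call was lost without Basal replicate 2 or 4 or Late replicate 2 or 4 (log2 0.64 to 0.69, adjusted p = 0.0532 to 0.0698).

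At region 19 (chr18:37983956-37984815), 11300 bases before region 20, the pattern was alike. Basal had 1.20, 0.772, 0.965 and 0.729 RPKM, Early 0.837, 0.987 and 0.601, Late 1.50, 1.92, 1.79 and 1.51, and Reactivated 1.41, 0.987 and 1.07. Late again lay above all other libraries. The log2 fold change from Basal was 0.63 ± 0.19 SE (limma, adjusted p = 0.0178), and it was 0.57 to 0.58 without Basal replicate 2, Basal replicate 4 or Late replicate 2, each of which ended the call (adjusted p = 0.0520 to 0.0566).

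Region 14 (chr18:37942934-37943318) passed narrowly. Its values were 0.960, 0.672, 0.864 and 1.92 RPKM in Basal, 0.528, 1.54 and 0.528 in Early, 2.19, 1.81, 1.92 and 1.88 in Late and 1.48, 1.87 and 1.58 in Reactivated. Basal replicate 4 reached the Late range and Early replicate 2 the Reactivated one. Its log2 fold change in Late against Basal was 0.67 ± 0.25 SE (limma, adjusted p = 0.0437), and the call was lost without Basal replicate 1, 2 or 3 or any 1 of the Late libraries (log2 0.53 to 0.69, adjusted p = 0.0665 to 0.144).

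The opposite order was seen at the last region. Region 22 had 1.82 ± 0.366 RPKM in Basal and 1.12 ± 0.272 in Late (log2 difference -0.52 ± 0.22, limma adjusted p = 0.0732), while region 21, which lies between them, had 1.59 ± 0.404 and 1.87 ± 0.233 RPKM (0.19 ± 0.22, adjusted p = 0.521). Neighbouring regions at this end thus differed in the direction of their values, and that difference between regions was not tested. The count of 3 was itself sensitive to single libraries. It was 0 without Basal replicate 2 (17.1% of all regions then being higher) or Late replicate 2 (18.7%), and 1 without Basal replicate 4 or Late replicate 4. Without Early replicate 1 there were 4 higher and 1 lower, where 27.9% and 7.01% of all regions were. Without Early replicate 2 there were 4 higher and 2 lower, where 30.9% and 7.46% were.

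Late against Early gave 1 region higher, region 20, where 0.310% of all regions were higher. Its log2 fold change was 1.15 ± 0.25 SE (limma, adjusted p = 0.0381), from 0.697 ± 0.441 RPKM in Early to 2.06 ± 0.372 in Late, and it passed after both other scalings too. All 21 tested regions had a log2 fold change above 0, where 53.0% of all regions did, and the median was 0.48 against 0.02. In both flanks the median was 0.38, so much of the shift was shared with the neighbours. Region 20 missed the threshold without Early replicate 1 or 3 or any 1 of the Late libraries (adjusted p = 0.0526 to 0.165), with a log2 fold change of 0.87 to 1.23, and the count of the locus was then 0. Without Early replicate 2 it was 6, all higher, where 5.00% of all regions were. In the flanks of lower and higher coordinates 8 of 43 and 12 of 75 were then higher.

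Reactivated against Late sets libraries with recall beside those without it. In limma 0 of the 21 regions passed, where 0.231% of all regions did, and 3 had an unadjusted p below 0.05, where 11.3% of all regions did. The median log2 fold change was 0.25 in the locus and 0.09 over all regions. It was 0.27 in the flank of lower and 0.22 in the flank of higher coordinates. The 3 with a low unadjusted p were chosen after their values were seen. Region 6 was at 0.66 (unadjusted 95% interval 0.12 to 1.19, limma adjusted p = 0.351) and region 13 at 0.58 (0.11 to 1.04, adjusted p = 0.348), both with higher values in Reactivated. Region 20 was at -0.69 (-1.20 to -0.17, adjusted p = 0.322), with every Reactivated library below every Late one. The intervals do not show that the groups are alike.

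Reactivated against Basal gave 3 regions higher and 0 lower, where 24.3% of all regions were higher and 4.78% lower. The median log2 fold change was 0.39 both in the locus and over all regions. The 3 were regions 4, 6 and 8, all on the near side of the empty stretch. When the percentage of reads in regions was a covariate, 0 regions passed in the locus and 0 in the table. That percentage was 13.2 to 19.3 in Basal and 21.3 to 24.0 in Reactivated, without overlap. The fit therefore cannot cleanly tell its part from that of the group.

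Region 6 rose most. It stood at 1.71, 1.52, 1.57 and 1.80 RPKM in Basal, at 2.09, 3.47 and 1.99 in Early, at 2.89, 2.51, 1.96 and 3.51 in Late and at 5.91, 3.56 and 4.28 in Reactivated. All 10 libraries of the other groups lay above the 4 Basal ones, and the Reactivated libraries were the highest of all. The log2 fold change from Basal was 1.22 ± 0.26 SE (limma, adjusted p = 0.00434). It passed under 23 of 24 alternative settings, both other scalings included, and missed with that covariate (0.89, adjusted p = 0.146). The region is 388 bases wide, with 32 to 129 reads per library.

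Region 8, the last before the empty stretch, had 2.69, 1.86, 1.33 and 2.41 RPKM in Basal, 0.952, 2.68 and 1.81 in Early, 3.06, 3.08, 2.91 and 2.76 in Late and 4.64, 3.24 and 3.46 in Reactivated. Late and Reactivated lay above Basal and Early throughout. The log2 fold change of Reactivated against Basal was 0.75 ± 0.27 SE (limma, adjusted p = 0.0432). That call depended on many libraries, since it was lost without Basal replicate 2, 3 or 4, Early replicate 3, or any 1 of the Late or Reactivated libraries (log2 0.60 to 0.84, adjusted p = 0.0526 to 0.155), and neither other scaling kept it.

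Region 4 (chr18:37308626-37309367), named after its values were seen, had 0.771, 0.597, 0.597 and 0.920 RPKM in Basal, 0.423, 1.24 and 0.647 in Early, 1.16, 1.40, 0.855 and 1.41 in Late and 1.54, 1.02 and 2.24 in Reactivated. Reactivated lay above Basal without overlap and overlapped with Late and Early. Its log2 fold change was 0.75 ± 0.24 SE (limma, adjusted p = 0.0271), and it missed the threshold after both other scalings and without Basal replicate 2 or 3 or Reactivated replicate 1 or 3 (log2 0.53 to 0.75, adjusted p = 0.0625 to 0.154). The count of the locus was 1 without any 1 of these libraries.

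**Figure D4:**
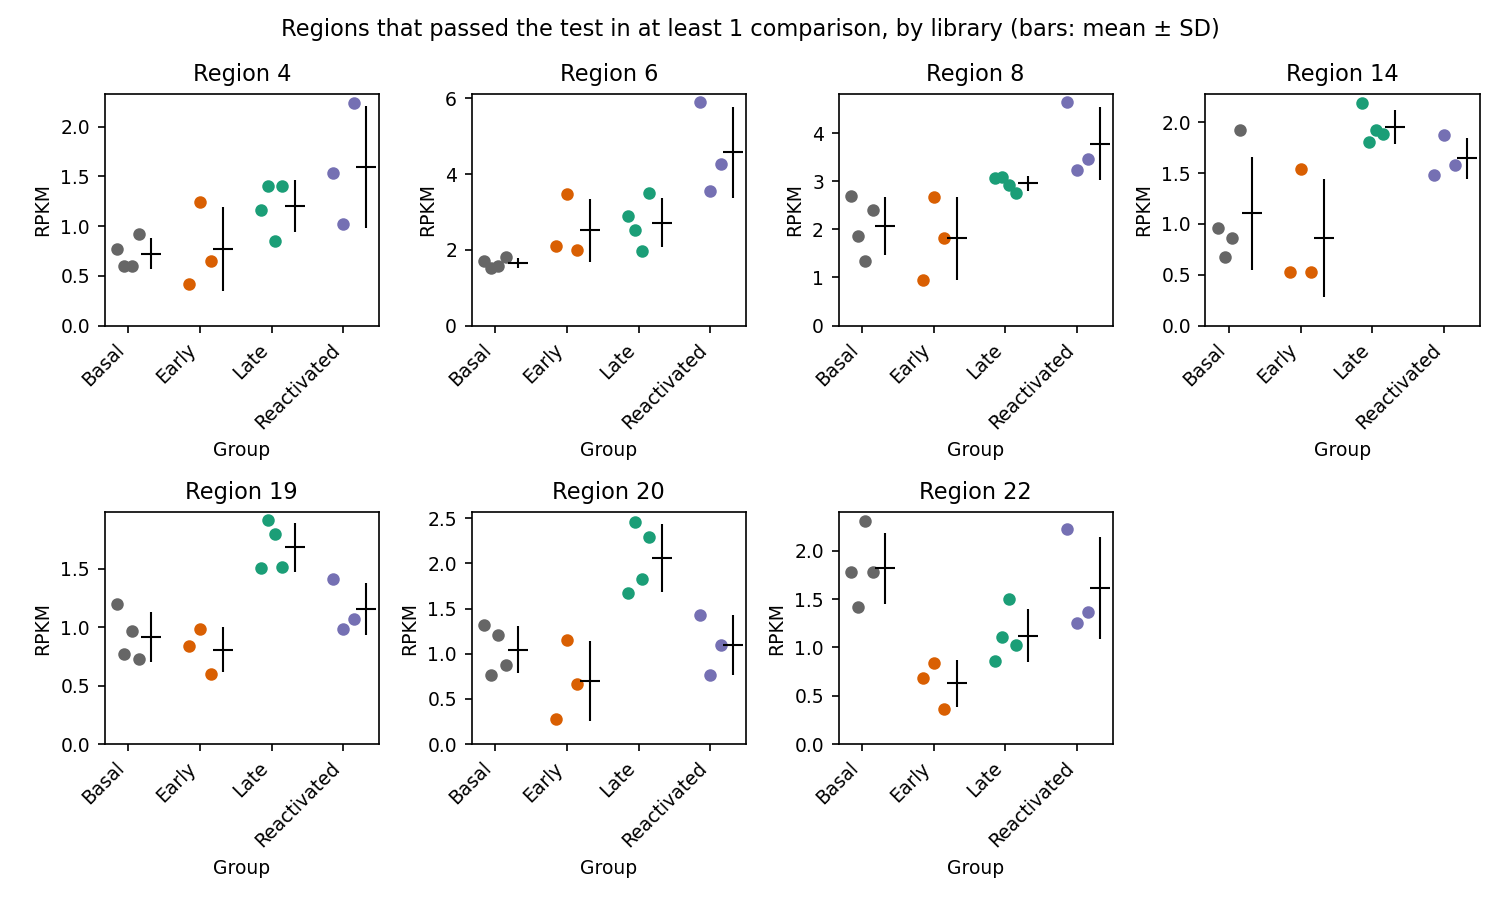
RPKM of the 7 regions that passed the test in at least 1 of the 6 comparisons on the deposited scale. Each point is 1 library, and black bars give mean ± SD. Late lies above all other libraries at regions 19 and 20, Reactivated above all others at region 6, and Early below Basal at region 22. The regions are shown because they passed on these same values, and the share of all regions with such a separation was not counted.

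Reactivated against Early had the largest differences over the locus as a whole and 0 regions that passed in limma, where 0.944% of all regions were higher and 0.417% lower. At an unadjusted p under 0.05 there were 15 of 21, where 19.5% of all regions had such a p. All 21 log2 fold changes were above 0, where 60.2% of all regions were, with a median of 0.73 against 0.11. The median was 0.57 in the flank of lower and 0.62 in the flank of higher coordinates, so much of the shift was shared with the neighbours. This comparison shares the Early libraries with the 2 others that involve Early. After median-of-ratios scaling regions 7 (chr18:37337558-37338540), 8 and 21 were higher, where 1.96% of all regions were, and the same 3 after quantile normalization, where 2.02% were. With each of these scalings 7 of 43 regions in the flank of lower coordinates and 9 of 75 in the other flank were higher. Without Early replicate 2, which stood highest of the Early libraries at 20 of the 22 regions, 15 of 21 were higher, where 14.5% of all regions were, against 0.944% with it. In the flanks of lower and higher coordinates 19 of 43 and 36 of 75 were then higher, so the locus shared this with its neighbours.

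Regions 2 (chr18:37249144-37250757), 9, 16 (chr18:37965523-37967168) and 18 passed in none of the comparisons on the deposited scale. After median-of-ratios scaling regions 16 and 18 were lower in Early against Basal, and region 18 was so after quantile normalization too. Among the members with a mean above 1.40 RPKM, the median of the locus, that passed in none, their group means varied least, by 0.56 to 0.67 between the highest and lowest on the log2 scale. This says nothing of the spread within groups, which was wide at region 9. Region 2 had 1.37 ± 0.183 RPKM in Basal, 1.15 ± 0.173 in Early, 1.54 ± 0.0463 in Late and 1.94 ± 0.326 in Reactivated. Region 18, 1426 bases wide, had 2.02 ± 0.385, 1.56 ± 0.520, 2.32 ± 0.0977 and 2.74 ± 0.600 RPKM in the same order. In region 16 the means were 1.51 ± 0.196, 1.19 ± 0.465, 1.47 ± 0.353 and 1.95 ± 0.222 RPKM. They followed the general order of the locus, with Early lowest and Reactivated highest.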

How the data were processed

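The authors deposited 1 table of RPKM values for all 14 libraries. The submitters' processing notes name the mm9 build and, as the authors' tools, MACS2, Bowtie2 2.0, DiffBind, SAMtools and DESeq2; parameters and the treatment of duplicates are not given in the sources used here. RPKM times width gave whole multiples of 1 step in every library (100% of values within 0.01), so reads and library totals were recovered. Regions overlapping the locus were taken as listed, with the table's coordinates.

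Values were tested as log2(RPKM + 0.5), which understates changes of low regions, with limma 3.58.1 (trended, robust) in R 4.3.3. The fit used all 14 libraries and 172143 regions, leaving out the 10% of lowest mean, with Benjamini-Hochberg adjustment over all of them at 0.05. It was tested on simulated reads with a common spread and the same expected share of reads in regions in all libraries. That run therefore does not cover libraries that differ in this share. Groups come from the titles. Alternatives were other pseudocounts, filters and scalings, a replicate block, a covariate for the percentage of reads in regions, the compared groups alone, and each library left out. The ratio of medians was chosen after seeing the data. Planned count models on the recovered reads were run and left out, because the deposited unit is RPKM, and the closing section says how they differed.

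The regions named are the 6 of highest mean and those with the largest changes that passed on the deposited scale. The 4 of smallest range between group means come from those above the locus median RPKM that passed in no comparison on that scale. The widest, the first, the last, those beside the widest gap and the highest of each segment were named as well. Members and lists were chosen with earlier results of these data known. Sequences of the locus are not reported here.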

Additional observations from a re-analysis of the deposited data

Results flagged for a closer look

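A single library lay far from the other 3 of its group in 2 of the 48 groups of 4 values checked, about what chance gives (1 in 20 groups). At region 3 (chr18:37302987-37304775) Basal replicate 2 was lowest, at 1.56 RPKM, and its gap to the next library took 0.847 of the group's range. At region 15 (chr18:37946016-37946544) Late replicate 2 was lowest, at 0.944 RPKM, with a gap of 0.846 of the range. The critical value for 4 libraries is 0.829.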

How the results depend on the processing

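The single call in Early against Basal held in direction under each alternative run. Its count of 1 lower region became 10 with median-of-ratios scaling, 7 with quantile normalization and 7 with the covariate for the percentage of reads in regions. Late against Basal, 3 higher, turned to lower calls alone with median-of-ratios scaling (2) and with quantile normalization (2), and gave 7 (5 higher, 2 lower) with the 2 compared groups alone and 2 (1 higher, 1 lower) with the covariate, where 14.9% of all regions were higher and 6.82% lower. Late against Early, 1 higher, gave 0 with a pseudocount of 0.1 and with the 2 groups alone, 5 with quantile normalization and 7 with the covariate. Reactivated against Basal, 3 higher, gave 1 with median-of-ratios scaling, 1 with quantile normalization and 0 with the covariate. Reactivated against Early, 0, gave 3 with median-of-ratios scaling, 3 with quantile normalization and 2 with the covariate. Reactivated against Late, 0, gave 1 (lower) with the covariate. The cause of these shifts was not tested. With 1 library left out the counts ranged from 1 to 1 for Early against Basal, 0 to 6 for Late against Basal, 0 to 0 for Reactivated against Late, 0 to 6 for Late against Early, 1 to 4 for Reactivated against Basal and 0 to 15 for Reactivated against Early. The level of the locus over that of the table then had a Basal mean of 1.17 to 1.24, an Early mean of 0.732 to 0.756, a Late mean of 1.14 to 1.21 and a Reactivated mean of 1.09 to 1.25. As a ratio of medians it was 1.36 in Basal and 0.774 in Early.

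Same-numbered libraries did not deviate together (0 of 19 pairs correlated over 0.1, range -0.26 to 0.0687), so the numbers were not taken as pairs. The fit with the replicate number as a block gave 1 region in Early against Basal, 2 in Late against Basal, 0 in Reactivated against Late, 0 in Late against Early, 2 in Reactivated against Basal and 0 in Reactivated against Early. The planned count models on recovered reads were run, and their values are left out because the deposited unit is RPKM. They turned Late against Basal to lower calls alone, as both other scalings did. They gave more lower calls in Early against Basal, more higher calls in Late against Early and Reactivated against Early, and fewer in Reactivated against Basal. A count fit added later, with the deposited library totals, gave no more calls than limma in Late against Early and Reactivated against Early. In Early against Basal and Reactivated against Basal that fit gave slightly more. Regions with few reads, down to 4 in a library, limit what can be seen in narrow regions.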

Other observations

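The order of the regions within each library needs no scaling between libraries. Region 9 (chr18:37803641-37804182) was among the 3 highest of the 22 in all 14 libraries and the highest in all 3 Early ones. Region 6 (chr18:37331910-37332298) ranked 6 to 10 in Basal, 2 in each Early library, 1 to 4 in Late and 1 to 2 in Reactivated. Region 20 (chr18:37996115-37996450) ranked 5 to 10 in Late, against 13 to 18 in Basal, 16 to 21 in Early and 19 to 21 in Reactivated, so its place in Late overlapped with that in no other group.

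Region 22 (chr18:38004173-38004525) ranked 2 to 10 in Basal, 11 to 18 in Reactivated, 14 to 21 in Early and 13 to 21 in Late, higher in every Basal library than in any other. Region 13 (chr18:37927513-37928240) ranked 8 to 17 in Basal and 20 to 22 in Late. The ranks of the other regions that passed separated less clearly. Region 19 ranked 8 to 13 in Late, 16 to 20 in Basal and 11 to 18 in Early. Region 14 ranked 5 to 11 in Late and 6 to 20 in Basal. Region 8 ranked 2 to 3 in Reactivated and 1 to 8 in Basal. Region 4 ranked 6 to 17 in Reactivated and 17 to 21 in Basal. These ranks rest on the same values as the tests and are given as a description.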
